A study of Rattus norvegicus with 30 samples.

Results

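Rats that took saline and received foot-shocks were compared with rats that took saline and received none, to look at foot-shocks in the hippocampus without methamphetamine (METH). The 17 libraries were chosen by the group codes in their titles from the 30 of the series, with 1 library per rat. The YSR (n = 5) and YSS (n = 5) rats make up the 10 yoked rats, and the CT rats (n = 7) are the controls. All 17 were adult male wild-type Sprague Dawley rats, which lived through 21 days of saline self-administration and then through an 8-day phase in which the yoked rats were shocked. A yoked rat could not avoid its shocks, which were given whenever the METH rat to which it was connected was punished. YSR rats were connected to shock-resistant METH rats (SR, n = 7), which kept pressing for the drug, and YSS rats to shock-sensitive METH rats (SS, n = 6), which pressed less. The pairs of yoked and METH rats were not used here. The titles also carry a code, XII or XIII, taken as the cohort. Cohort XII supplied 1 CT, 3 YSR and 1 YSS rat, and cohort XIII the other 6 CT, 2 YSR and 4 YSS rats, so that most of what follows rests on cohort XIII.

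The hippocampus forms memories of places and events, including those of being shocked, and it is rich in receptors for the stress hormone corticosterone, which act on transcription. Stress can therefore change hippocampal RNA through nuclear hormone receptors and through genes that follow neuronal activity. Which genes of these kinds are in the tables could not be read, because the deposited counts carry Ensembl identifiers without gene symbols and 0 of 32552 identifiers matched the gene table used here. Genes are therefore described by position, length and level, and at most 2 in each direction by identifier. The hippocampal identity of the tissue was not checked against marker genes for the same reason. The study's methods describe entire hippocampi collected at the end of the last session, whereas its abstract gives a time 2 h later. The labels also give 2 h, and they name dorsal striatum in one field and hippocampal tissue in another.

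Each library held between 14584340 and 19997820 counts, with medians of 17386092 in CT and 17618904 in yoked rats. A floor of 3 counts corresponds to between 0.15 and 0.206 counts per 1000000 (CPM), and a gene under it was treated as not detected. No library repeated another: chi-square per degree of freedom over 11912 genes was between 5.06 and 16 for pairs within a group. For pairs from different groups it was between 4.78 and 15, where sampling noise alone gives 1. On the first 2 principal components, which held 26.2% and 10.7% of the variance of 10690 genes, CT and yoked rats overlapped. The CT rat XIII-L11 stood apart on chromosome Y, with 139 CPM against between 225 and 236 in the other CT rats. Nothing in the labels says whether rats of a group shared a cage or a dissection, so that p-values measure the spread between these libraries.

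Few genes differed between yoked and CT rats beyond the spread between rats, and most of them were lower in yoked rats. Of 15260 genes tested by edgeR's quasi-likelihood test with the cohort as a covariate, 22 (0.144%) had a Benjamini-Hochberg adjusted p-value under 0.05. Of these, 20 (0.131% of the genes tested) were lower in yoked rats and 2 (0.0131%) were higher. In 19 of the 20 lower genes every yoked rat was below every CT rat, and over all genes tested this was so for 23 genes (0.151%). In neither of the 2 higher genes were all yoked rats above all CT rats, a separation that 1 gene (0.00655%) showed. The filter before testing asked for a minimum level in as many libraries as there were CT rats. A gene near 0 in all yoked rats was thus tested only if every CT rat reached that level. For such genes the separation was fixed by the filter. A gene near 0 in CT rats did not need every yoked rat, so the counts in the 2 directions are not alike. Leaving out the CT rat XIII-L11 gave 22 adjusted genes, 21 of them the same. The balance of directions depended on the test and on single rats, with 15 higher genes among 48 in DESeq2 and 6 among 28 in edgeR without the YSS rat XIII-R04.

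The lower genes fell into a set of 17 that were at least 1.7-fold lower, a pair of short mitochondrial features and a single further gene. The set of 17 was put together after the values were seen. Its members had between 0.877 and 14.5 CPM on average in CT rats and at most 3.79 CPM on average in yoked rats. Their ratio of CT to yoked levels ran from 2.86 to 499. For 7 of them at least 8 of the 10 yoked rats had fewer than 3 counts, so that their RNA was not detectable in most yoked rats at this depth. In bulk tissue, fewer cells of a type and less RNA per cell cannot be told apart. Whether RNA from outside the hippocampus entered some libraries, the CT ones among them, was not tested, because no marker gene could be named. The fold changes of these genes are therefore differences between libraries and may not be changes within hippocampal cells.

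ENSRNOG00000007092 had the smallest p-value. It lies on chromosome 2 from 182027115 to 182038178, as the deposited tables give it, with 10 exons. Its level had a lowest value of 4.05 CPM, a median of 6.01 and a highest value of 7.04 in CT rats. In yoked rats it was 0 in 8 rats, 0.0596 CPM in YSR XII-R06 and 0.0568 CPM in YSS XIII-R04. All CT rats therefore had clear levels, as the filter required of a gene so low in yoked rats, and no yoked rat had more than 1 read. Summed over rats, there were 699 counts in CT and 2 in yoked libraries, a CPM ratio of 499 with a 95% exact interval from 138 to 4127 that covers counting error only. The fitted log2 fold change was -8.29 ± 0.32 (SE, edgeR adjusted p = 1.37e-12), a value that depends on the prior count because the yoked level is near 0. Its SE was derived from the fold change and the F value of the test. That SE is narrower than the counting interval above, so that it understates the uncertainty. The exact two-sided permutation test within cohorts gave p = 0.000216, the smallest that the 4620 arrangements allow. This test was run only on genes already called in these libraries, so that it adds no separate support.

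This gene had neighbours that behaved alike. The tables list 3 genes between 181987217 and 182038178 on chromosome 2, a stretch of 51 kb, and all 3 were in the set. The one from 181987217 to 181994514 had between 1.04 and 2.59 CPM in CT rats and at most 0.116 in yoked rats. The one from 182006242 to 182013763 had between 1.58 and 3.25 CPM in CT rats and at most 0.426 in yoked rats. Another gene of the set lay elsewhere on chromosome 2, from 180897011 to 180914940, with between 0.914 and 2.08 CPM in CT rats and at most 0.179 in yoked rats. It overlaps 2 other listed genes, so that its reads may not all be its own. These 4 genes had no overlap between the groups, which the filter had fixed for genes so low in yoked rats.

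ENSRNOG00000005542, on chromosome 6 from 33176778 to 33224997, was the longest member, with 32 exons and 14969 exonic bases. In CT rats its level had a lowest value of 3.52 CPM, a median of 6.30 and a highest value of 6.84. In yoked rats these values were 0, 0.178 and 0.291 CPM. The highest yoked rat thus lay more than 10-fold under the lowest CT rat. The CPM ratio was 35.5 (95% exact interval 24.5 to 53.4, counting error only), from 722 and 29 counts. The fitted log2 fold change was -5.14 ± 0.28 (SE, edgeR adjusted p = 6.78e-10).

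Some members kept a measurable level in yoked rats. The gene on chromosome 14 from 19176277 to 19191863 was the most counted of the set. It had a median of 16.6 CPM in CT rats (9.08 to 18.7) and of 3.46 CPM in yoked rats (2.27 to 5.11), a log2 fold change of -2.01 ± 0.18 (SE, edgeR adjusted p = 5.29e-07). The gene on chromosome 9 from 74124016 to 74236274, with 38 exons, had a median of 9.71 CPM in CT rats (5.79 to 12.8) and of 1.90 CPM in yoked rats (1.25 to 2.99). The gene on chromosome 1 from 170423483 to 170431073 had a median of 5.22 CPM in CT rats (3.78 to 11.3) and of 0.436 CPM in yoked rats (0.266 to 1.08). In these 3 genes the groups did not overlap, and yoked rats differed from each other by less than 5-fold.

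The remaining members lay on chromosomes 1, 3, 5, 14 and 16 and on an unplaced scaffold. A second gene on chromosome 14, from 20266891 to 20302581, lay within 1130 kb of the abundant one and had between 0.586 and 1.31 CPM in CT rats and at most 0.157 in yoked rats. The scaffold gene and a gene on chromosome 5 from 58994682 to 58994953 each had 1 exon, of 267 and 272 bases, and the latter fell from a median of 3.38 CPM in CT rats to 0.877 in yoked rats. Overlap between the groups was found in 1 member, on chromosome 1 from 105284753 to 105336363, with between 2.02 and 7.97 CPM in CT rats and between 1.01 and 3.35 in yoked rats. Its log2 fold change was -1.50 ± 0.24 (SE, edgeR adjusted p = 0.00364).

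**Figure D1:**
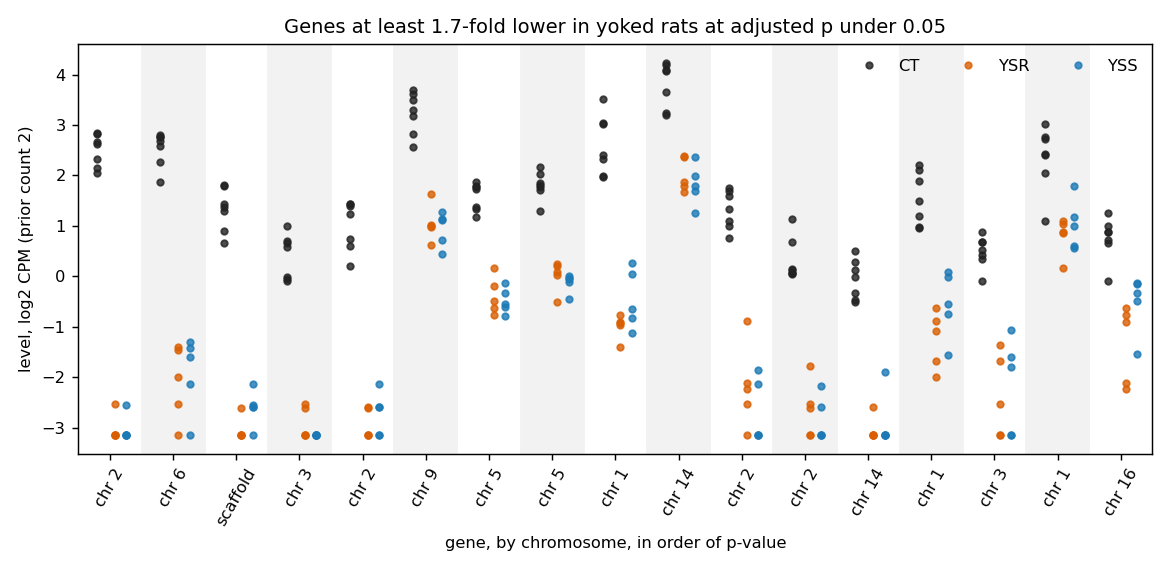
Level of each of the 17 genes in every rat, on the vertical axis as log2 CPM with a prior count of 2, with 1 column per gene named by its chromosome and ordered by p-value. Each point is a rat (black CT, orange YSR, blue YSS). The columns separate in 16 of the 17 genes, and many yoked points sit at the lower edge, which stands for 0 counts. For genes near 0 in all yoked rats, the filter before testing had fixed the separation.

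The 17 genes were low together in every yoked rat. Their summed level had a lowest value of 51.96 CPM, a median of 75.86 and a highest value of 82.69 in CT rats. In yoked rats these values were 9.182, 11.045 and 14.28. The medians differed by 6.87-fold, and no yoked rat came near a CT rat. These sums are a description, since the genes were chosen for their low values in yoked rats. Within cohort XII, the single CT rat had 80.14 CPM and the 4 yoked rats between 9.182 and 14.28. The lowest CT rats were XIII-L11 with 51.96 CPM and XIII-L12 with 53.71, the only CT rats whose code has the letter L.

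Both kinds of yoked rat had these low levels. The summed level was between 9.182 and 12.24 CPM in YSR rats and between 9.709 and 14.28 in YSS rats. For ENSRNOG00000007092, the log2 fold change was -8.30 ± 0.45 (SE) for YSR and -8.29 ± 0.42 (SE) for YSS rats against CT. For ENSRNOG00000005542 it was -5.32 ± 0.40 (SE) and -5.00 ± 0.37 (SE). These comparisons share the CT rats. Each yoked group held only 1 count of ENSRNOG00000007092, so that its SE understate the uncertainty. The 22 genes were chosen on the pooled rats, so that their values in the 2 yoked groups are a description.

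In YSR vs. YSS, the comparison of rats connected to the more and the less shocked METH rats, 585 genes (3.83% of those tested) passed at an unadjusted p-value under 0.05. Of these, YSR rats had the higher level in 279 and the lower level in 306. None passed after adjustment by edgeR, and 617 passed unadjusted without the cohort term. Among the 22 genes, 2 were in this list. The gene on chromosome 1 from 213511874 to 213535542 had 0.332 CPM on average in YSR and 0.619 in YSS rats (log2 difference -1.11, edgeR adjusted p = 0.997). The gene on chromosome 16 from 6970342 to 6985579 had 0.330 and 0.618 CPM (log2 difference -1.08, edgeR adjusted p = 0.997). Both were lower still in the YSR rats than in the YSS rats, by an amount that does not hold after adjustment.

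The METH rats place these levels in a wider range. Over all 30 libraries, the summed level of the 17 genes was between 8.86 and 20.2 CPM in SS rats, all of which had been shocked too. In SR rats it ran from 11.7 to 71.8 CPM. The 3 SR rats with the letter L had 49.62, 65.51 and 71.82 CPM and the 4 with the letter R between 11.7 and 17.85. SR rats thus spanned the yoked and the CT levels, although they too were shocked. All SS rats were below all CT rats in 15 of the 17 genes and in 21 (0.138%) of all genes tested. All SR rats were below all CT rats in 0 of the 17 and in 16 (0.105%) of all genes tested. The 17 were chosen for high values in these same CT rats, so that the first count supports nothing further. The exception in mean was the gene on chromosome 1 from 105284753 to 105336363, with a median of 6.20 CPM in SS rats. These differences were not tested. The letter is not explained in the labels. Among SS rats the sums were 15.67 to 20.2 CPM with L and 8.86 and 14.17 with R. Among CT rats L was the lower, with 51.85 and 53.57 CPM against 64.5 to 83.37 with R. Among YSS rats L and R overlapped, as the plot of summed levels by group shows, and all YSR rats have R. Levels near those of CT rats were thus found in all CT rats and in 3 of the 7 SR rats, and sums of at most 20.2 CPM in all other rats. Which cells or tissue these 17 transcripts mark was not tested, because their identifiers were not matched to gene names. For the same reason, whether tissue other than hippocampus was in the libraries with high levels was not tested.

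**Figure D2:**
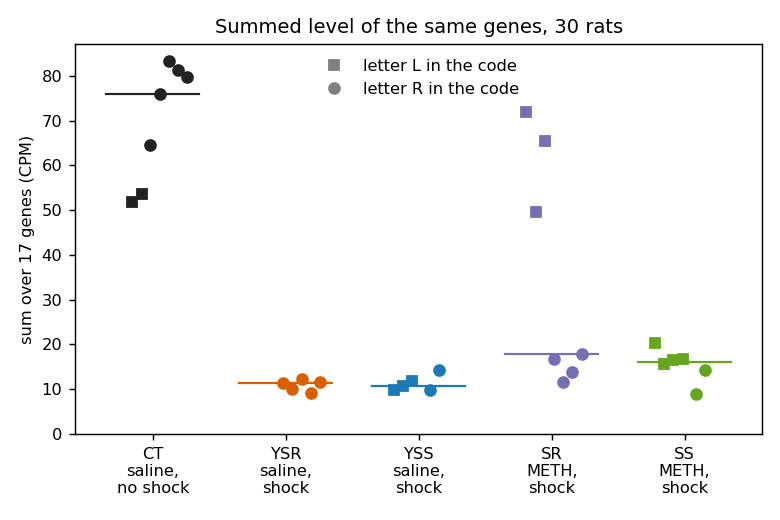
Summed level of the 17 genes in CPM (vertical axis, from 0) in each of the 30 rats, by group. Squares are rats with the letter L in their code, circles those with R, and lines are group medians; CT rats lie between 51.8 and 83.4, both yoked groups between 9.23 and 14.3, and SR rats in both ranges.

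The 2 genes that were higher after adjustment changed little in size. ENSRNOG00000062298, on chromosome 1 from 101120325 to 101123402, had a lowest value of 111 CPM, a median of 121 and a highest value of 130 in CT rats. In yoked rats these values were 125, 140 and 154. A single yoked rat, YSR XII-R10, lay within the CT range. The log2 fold change was 0.24 ± 0.04 (SE, edgeR adjusted p = 0.00985), and the exact two-sided permutation test within cohorts gave p = 0.000216. For both higher genes the permutation followed the call in the same libraries, so that it adds no separate support. The gene overlaps 5 other listed genes, whose reads it may share. Without the single CT rat of cohort XII, XII-R11, its adjusted p-value from edgeR was 0.0702, and with the METH libraries in the fit it was 0.536.

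ENSRNOG00000011817, on chromosome 2 from 115362799 to 115364729, has 560 exonic bases in 4 exons. Its level had a lowest value of 21.1 CPM, a median of 22.2 and a highest value of 24.5 in CT rats, and 24.4, 28.0 and 32.7 CPM in yoked rats. A single yoked rat, YSS XIII-R04, lay within the CT range. The log2 fold change was 0.34 ± 0.06 (SE, edgeR adjusted p = 0.0212, exact two-sided permutation test within cohorts, p = 0.000649). This call was lost when any of 7 rats was left out (CT XIII-L11, XIII-R05, XIII-R06, XIII-R12 and XII-R11, YSS XIII-L02 and XIII-L04), with adjusted p-values from edgeR between 0.0522 and 0.0651. The means of SS rats were above those of CT rats in both genes.

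**Figure D3:**
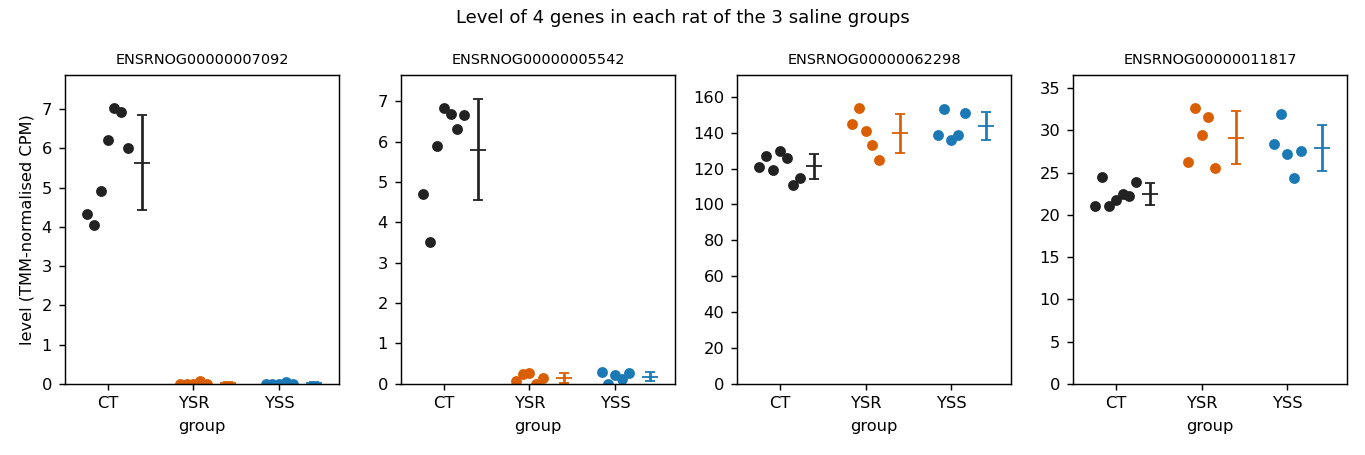
Level in CPM (vertical axes, from 0) of 4 genes in every CT, YSR and YSS rat, with the group mean and SD beside the points. In the first pair of genes yoked rats lie at or near 0 against CT levels of 3.52 to 7.04, and in the other pair they lie slightly above the CT rats, with 1 yoked rat of each gene inside the CT range.

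The next 8 genes among those higher in yoked rats, in order of p-value, did not pass, with adjusted p-values from edgeR between 0.0612 and 0.187. Of the 10 genes of smallest p-value in this direction, 8 had differences under 1.7-fold, and in each of the 10 between 6 and 9 yoked rats were above all CT rats. The gene on chromosome 1 from 222466575 to 222468896 had between 165 and 190 CPM in CT rats and between 183 and 203 in yoked rats (log2 fold change 0.15 ± 0.03 SE). Such shifts were tight between rats and small.

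Differences of at least 1.7-fold were found in 44 genes (0.288%) at an unadjusted p-value under 0.05, with 11 in the higher and 33 in the lower direction. The set of 17 was among them, and 27 did not pass after adjustment. The largest of these was a gene on chromosome 20 from 3135791 to 3140610, which overlaps another listed gene. It had a median of 0.259 CPM in CT rats (0.123 to 0.573) and of 0.735 CPM in yoked rats (0.209 to 5.99), with 6 of 10 yoked rats above all CT rats (log2 fold change 3.19 ± 0.77 SE, edgeR adjusted p = 0.187). A gene on chromosome 14 from 5928737 to 5945321 had between 0 and 0.827 CPM in CT rats and between 0.418 and 2.85 in yoked rats (log2 fold change 2.00 ± 0.41 SE, edgeR adjusted p = 0.0612). Both had large differences at low levels that some yoked rats did not show.

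Among the lower genes of this kind, the gene on chromosome 16 from 20027348 to 20038716 had a median of 9.86 CPM in CT rats (3.28 to 15.0) and a range from 1.63 to 12.5 CPM in yoked rats. Of the 10 yoked rats, 7 were below all CT rats, and the highest was within the CT range. Over the 16 lower genes that did not pass, a median of 4 of 10 yoked rats were below all CT rats, and over the 11 higher genes a median of 5 were above all of them. Apart from a short mitochondrial feature described with the others of its kind, no gene among the 27 had more than 8 yoked rats past all CT rats.

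A further gene was lower by less than 1.7-fold and with little spread. It lies on chromosome 13 from 78805347 to 78833192, with 15 exons, and had a median of 5.40 CPM in CT rats (4.32 to 6.31) and of 3.67 CPM in yoked rats (3.14 to 4.17). The groups did not overlap. Its log2 fold change was -0.60 ± 0.09 (SE, edgeR adjusted p = 0.00364), with -0.62 for YSR and -0.58 for YSS rats against CT.

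The mitochondrial genome is copied into long transcripts that are cut at the transfer RNAs lying between its protein-coding and ribosomal genes. Libraries enriched with oligo(dT) beads, as these were per the labels, favour RNA with a poly(A) tail, and transfer RNAs are not usually among it. The tables list 35 mitochondrial features, of which 22 have between 60 and 75 bases, the size of transfer RNA genes, and 13 are longer. Of the 29 tested, 16 were short. Among the short ones 11 were lower and 5 higher in yoked rats, with a median log2 fold change of -0.105. Among the 13 longer ones 3 were lower and 10 higher, with a median of 0.06 and a range from -0.02 to 0.18. The medians over short and longer features thus had opposite signs, and both were small.

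Of the short features, 2 were lower after adjustment. The one from 6865 to 6933 on the minus strand had a median of 55.6 CPM in CT rats (50.3 to 65.9) and of 42.7 CPM in yoked rats (40.5 to 50.2), a log2 fold change of -0.42 ± 0.06 (SE, edgeR adjusted p = 0.000536). It shares its last bases with a neighbouring gene on the plus strand, and whether the counting used the strand is not given in the sources used here. The one from 3835 to 3903 on the plus strand had a median of 26.9 CPM in CT rats (22.3 to 31.0) and of 19.1 CPM in yoked rats (14.5 to 22.2), a log2 fold change of -0.49 ± 0.08 (SE, edgeR adjusted p = 0.00542). In both, every yoked rat was below every CT rat.

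Another short feature, from 7693 to 7756, had between 1.41 and 1.98 CPM in CT rats and between 0.568 and 1.37 in yoked rats, again without overlap, and missed the threshold (log2 fold change -0.80 ± 0.17 SE, edgeR adjusted p = 0.081). The longer features nearest to it did not move with it: the one from 7006 to 7689 had a log2 fold change of 0.03 ± 0.06 (SE) and the one from 7758 to 7961 of -0.02 ± 0.06 (SE). Of the longer features, 2 were higher at an unadjusted p-value under 0.05 and none after adjustment. All mitochondrial features together held 7.52% ± 0.792 (SD, n = 7) of the counts in CT and 7.97% ± 0.498 (SD, n = 10) in yoked rats, with ranges that overlapped.

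**Figure D4:**
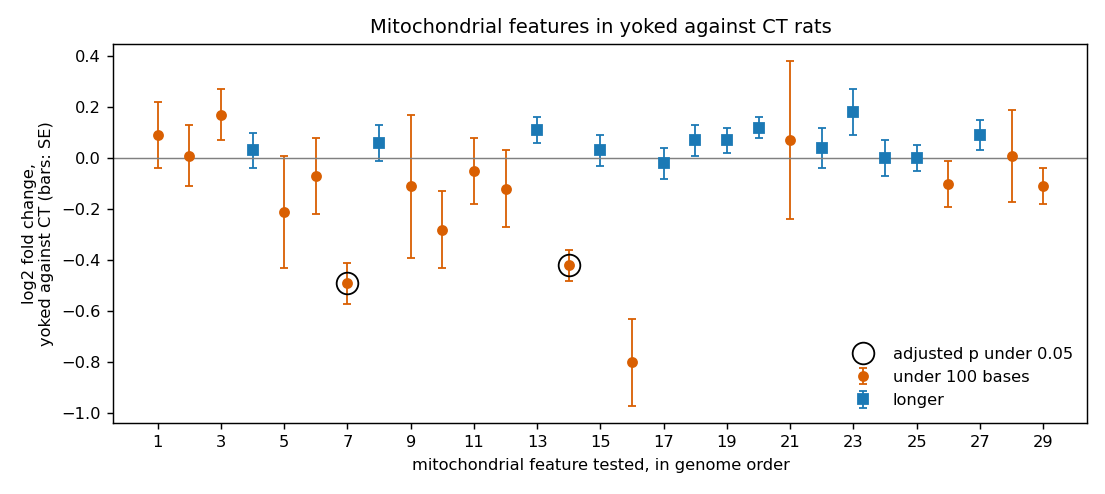
Log2 fold change of yoked against CT rats (vertical axis, bars are standard errors) for the 29 mitochondrial features tested, in the order of the mitochondrial genome. Features under 100 bases are circles and longer ones squares, rings mark the 2 at adjusted p under 0.05; the 3 lowest are all short, at -0.80, -0.49 and -0.42, while the longer ones stay between -0.02 and 0.18.

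Below the adjusted threshold, many small differences were spread over the genome. At an unadjusted p-value under 0.05 there were 1349 genes (8.84%). Yoked rats had the higher level in 597 (3.91%) and the lower level in 752 (4.93%). Their log2 fold changes were small, with a median size of 0.14 for the higher and 0.17 for the lower genes, against 0.057 over all genes tested. On the autosomes the share ran from 6.51% on chromosome 6 to 10.9% on chromosomes 13 and 16, so that no autosome held most of them. No list of stress, activity, receptor or cell type genes was counted among them, because the identifiers were not matched to gene names.

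The direction of these small differences went with the length of the gene. The median exonic length was 1615 bases for the higher genes, 3461 for the lower genes and 2344 for all genes tested. Among the 3053 shortest genes, of 49 to 1316 bases, 212 (6.94%) were higher and 70 (2.29%) lower. Among the 3052 longest, of 4016 to 29464 bases, 38 (1.25%) were higher and 313 (10.3%) lower. The medians of the log2 fold change in these 2 classes were 0.03 and -0.028, so the shift was slight for a typical gene. It was seen in YSR vs. CT. Of the short genes 209 (6.85%) were higher and 54 (1.77%) lower, and of the long genes 42 (1.38%) and 248 (8.13%). It was seen in YSS vs. CT, with 145 (4.75%) and 64 (2.10%) short genes and 37 (1.21%) and 185 (6.06%) long genes. Both comparisons share the CT rats, so that the second is no separate repeat of the first. In YSR vs. YSS, 61 short genes (2.00%) were higher and 67 (2.19%) lower in YSR rats. Of the long genes 38 (1.25%) were higher and 79 (2.59%) lower.

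Length moved with single rats as well as with the groups. The median deviation of the shortest class minus that of the longest, in log2 units, was between -0.103 and 0.0172 in CT rats and between -0.0277 and 0.0984 in yoked rats, so that the groups overlapped. CT XIII-R12 had the lowest value. Without it, 169 short genes were higher and 70 lower, and 44 long genes were higher and 216 lower. In cohort XIII alone the numbers were 188 and 56 for short and 41 and 284 for long genes. When each library's trend with length was removed, 121 short genes were higher and 115 lower, and 123 long genes were higher and 150 lower. The removal evens out the length classes by construction, so that these counts say nothing about the pattern. The same 22 genes passed after adjustment. The cause of the pattern with length was not tested.

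**Figure D5:**
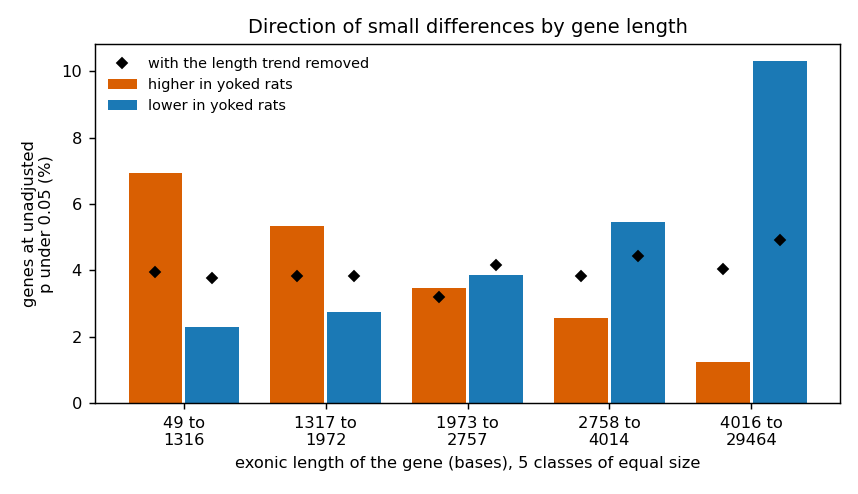
Share of genes at an unadjusted p-value under 0.05 (vertical axis, percent) in 5 classes of equal size by exonic length, higher (orange) and lower (blue) in yoked rats. Diamonds give the shares after the length trend of each library was removed, which evens out the classes by construction. The shares of higher genes fall from 6.94% to 1.25% with length and those of lower genes climb from 2.29% to 10.3%. The diamonds lie between 3.21% and 4.91%.

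Within cohort XIII alone, with 6 CT and 6 yoked rats, 16 of the 22 genes passed after adjustment by edgeR, against 17 (0.111%) of all genes tested. These rats are also part of the pooled comparison, so that this is not independent of it. The 6 that did not pass there were both higher genes, with adjusted p-values from edgeR of 0.0622 and 0.0923, the chromosome 13 gene (0.0622), the mitochondrial feature from 3835 to 3903 (0.0733), and, in the set of 17, the gene with overlap on chromosome 1 (0.0897) and the chromosome 16 gene (0.13). Cohort XII, with 1 CT rat, could not be tested on its own. Both higher genes also lost their call when single rats were left out, as given beside each.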

How the data were processed

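Hippocampal RNA of 17 rats, a part of 30 libraries, was analysed. Per the labels, mRNA was enriched on oligo(dT) beads, and per the study reads were paired-end. Per the submitters' processing notes bcl2fastq 2.17, Trimmomatic 0.36, STAR 2.5.2b and featureCounts of Subread 1.5.2 were used. The genome build, annotation release and strand setting are not given in the sources used here, and coordinates are those of the deposited tables. The authors deposited raw counts per Ensembl gene for each library, not normalized.

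Groups and cohort came from the titles. Genes passing edgeR's default filter (15260 of 32552) were tested with edgeR 4.0.16 in R 4.3.3 (quasi-likelihood F test, TMM, cohort as covariate, Benjamini-Hochberg adjustment over all of them). YSR and YSS were compared in a fit of 3 groups. Each SE of a log2 fold change was derived from the fitted value and its F value. CPM are TMM-normalized, except those of chromosome Y and of the floor, which are of the total count. Single genes already called were also compared by exact permutation of log2 CPM (prior count 2) within cohorts, in the same libraries. Intervals cover counting error only, at 14584340 to 19997820 counts per library.

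The members and lists were chosen with earlier results of these data known. The rule for named genes asked for up to 15 genes of smallest p in each direction at an adjusted p under 0.05, or else the 10 of smallest p, and for members of 29 lists by symbol. As no symbol matched, the lists were not used and 2 identifiers per direction were given, the rest by position. Genes given by position that this rule does not cover were picked with their values known. Alternatives were DESeq2 1.42.0, median-ratio size factors, other count filters, no cohort term, the letter in the code as a term, 3 groups, all 30 libraries, cohort XIII alone and each library left out. Removal of a lowess trend with length (span 0.3) was added after seeing the data. The code was tested on simulated counts.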

Additional observations from a re-analysis of the deposited data

Results flagged for a closer look

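In each group, the highest and lowest rat were set against the rest for library measures and the 4 identified genes. Of 27 groups of values, 3 had an extreme rat by a wide gap, where about 1.35 would be so by chance. Counts on chromosome Y were 139 CPM in the CT rat XIII-L11, against between 225 and 236 in the other CT rats. The level of ENSRNOG00000007092 was 0.0596 CPM in YSR XII-R06 and 0.0568 CPM in YSS XIII-R04, against 0 in the other 4 rats of each group. Each of the latter values is a single count and under the floor of 3 counts.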

How the results depend on the processing

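No alternative reversed a direction among the results examined. The number of adjusted genes, 22 in the report, was 48 with DESeq2, 45 among 24968 genes with at least 1 count and 8 among 14062 genes that had 10 counts or more in every library, a filter that left 9 of the 22 testable. It was between 17 and 25 under the other alternatives, 22 with the length trend removed, and between 21 and 28 with a rat left out, with 19 to 22 of the same genes. The number of adjusted genes higher in yoked rats, 2 in the report, was 15 with DESeq2, 1 with at least 10 counts in every library, 1 in cohort XIII alone and 0 with all 30 libraries. With a rat left out it was between 1 and 6: it was 1 without CT XIII-L11, XIII-R12 or XII-R11 or YSS XIII-L02 or XIII-L04, 4 without YSR XIII-R08 or XIII-R10, 5 without CT XIII-R11 and 6 without YSS XIII-R04. The genes at 1.7-fold, 44 in the report, numbered 684 with at least 1 count and 15 with at least 10 counts in every library, and between 42 and 70 with a rat left out, the highest without YSR XIII-R08. Unadjusted genes numbered between 900 and 1969. ENSRNOG00000007092 and ENSRNOG00000005542 passed after adjustment wherever they could be tested, and ENSRNOG00000011817 missed it at 0.057 with at least 10 counts in every library and at 0.199 with all 30 libraries (adjusted p from edgeR). The cause of these changes was not tested, apart from genes removed or added by a filter. Yoked and CT rats form no pairs, because each yoked rat was connected to a METH rat, so no paired analysis was run.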
